A study of Mus musculus with 10 samples.

Results

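Transcripts of 28 genes of cholesterol metabolism were compared between WT and Fbp1-deleted mouse liver. The genes were chosen by name for their place in the pathway, with earlier results of these data known, and all 28 were found by symbol among the 53392 genes of the count table. They are 18 enzymes of sterol synthesis, 4 genes of SREBP2 control and 6 genes of cholesterol uptake and intracellular handling. The WT group held 5 livers (replicates 1 to 5) and the Fbp1-deleted group another 5 (replicates 6 to 10), all from C57BL/6 mice aged 24 weeks. The labels call the second group deficient in hepatic FBP1, fructose bisphosphatase, an enzyme of gluconeogenesis. How and in which cells the gene was removed, and the sex, feeding state and hour of collection of the mice, are not stated in the labels or the design text. The livers were snap-frozen, and messenger RNA was sequenced from total RNA of whole tissue with a library that does not keep the strand.

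Liver cells build cholesterol from acetyl-CoA. The early enzymes make mevalonate and turn it into isoprenoid units, which farnesyl diphosphate synthase joins; squalene synthase, squalene epoxidase and lanosterol synthase then close the sterol ring, and a further set of enzymes trims lanosterol to cholesterol. Transcription of most of these enzymes is driven by SREBP2, which is made as a precursor in the membrane of the endoplasmic reticulum. When sterols are scarce, the escort protein SCAP carries the precursor to the Golgi, where proteases release its transcription factor domain; when sterols are plentiful, INSIG1 or INSIG2 holds SCAP in the endoplasmic reticulum. INSIG1 is itself an SREBP target, whereas INSIG2 is made in liver mainly from a transcript that insulin is known to repress.

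SREBP binds sterol regulatory elements, commonly beside a CCAAT box bound by the factor NF-Y. Promoter stretches are shown here for a synthesis enzyme with such an element in its window (Hmgcs1), for the synthesis enzymes that changed by the most (Mvk) and with the smallest adjusted p (Ebp), and for both INSIG genes, since these promoters serve the genes on which the results below turn. The sequences are from RefSeq on GRCm38.p6, 5′ to 3′ on the strand of the gene; capitals mark a sterol regulatory element (TCACNCCAC), CCAAT boxes (CCAAT, or ATTGG where the box lies on the other strand) and an E-box (CACGTG).
Hmgcs1, chr13:119690161-119690236, plus strand: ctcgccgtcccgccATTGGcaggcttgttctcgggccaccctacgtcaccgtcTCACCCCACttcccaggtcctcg
Mvk, chr5:114444089-114444268, plus strand: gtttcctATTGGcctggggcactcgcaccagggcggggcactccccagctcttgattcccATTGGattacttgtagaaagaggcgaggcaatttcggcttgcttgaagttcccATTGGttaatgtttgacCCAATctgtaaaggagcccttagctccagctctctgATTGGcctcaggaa
Ebp, chrX:8193513-8193577, minus strand: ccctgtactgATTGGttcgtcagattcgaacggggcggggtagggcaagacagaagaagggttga
Insig1, chr5:28071192-28071322, plus strand: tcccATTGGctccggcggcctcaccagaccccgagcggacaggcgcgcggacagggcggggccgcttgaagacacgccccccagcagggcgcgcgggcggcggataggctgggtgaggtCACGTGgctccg
Insig2, chr1:121332590-121332729, minus strand: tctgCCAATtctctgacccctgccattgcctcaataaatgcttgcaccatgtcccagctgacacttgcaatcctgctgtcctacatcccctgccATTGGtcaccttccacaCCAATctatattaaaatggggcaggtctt
The Hmgcs1 stretch carries 1 sterol regulatory element and 1 CCAAT box, and the Mvk stretch 5 CCAAT boxes in 180 bases. The Ebp stretch has 1 CCAAT box, the Insig1 stretch has 1 CCAAT box and 1 E-box, and the stretch before the most upstream of the annotated Insig2 starts has 3 CCAAT boxes. The stretches differ in length, and the windows of Hmgcs1 and Ebp hold further CCAAT boxes outside the printed bases.

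The promoter table, with windows of 250 bases before to 50 after each start, matched 22 of the 28 genes (28 windows). Fdps, Fdft1, Sqle, Stard4, Npc1 and Soat2 had no entry. Searched on both strands, CCAAT stood in 19 of the 28 windows (67.9%), against 37.4% of the 32851 windows of all genes. The E-box CACGTG stood in 7 windows (25.0%, against 7.15%), those of Hsd17b7, Sc5d, Dhcr7, Scap, Insig1 and Abca1. The Scap windows overlap and hold the same E-box, which is counted in each of them. The sterol regulatory element TCACNCCAC was found in the window of Hmgcs1 (3.57%, against 1.24%). Its shorter core CACNCCAC, which overlaps it, was found in those of Acat2, Hmgcs1 and Insig1 (10.7%, against 6.24%). These are matches of letters, given as a description.

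The libraries held between 17778395 and 23894812 counts. Fbp1 itself lay between 778 and 1050.3 counts-per-million (CPM) in the WT libraries and between 7.38 and 13.4 CPM in the Fbp1-deleted libraries. Xist was detected at 342 CPM or more in all 10 libraries and the Y-linked Ddx3y at no more than 0.566 CPM. Hepatocyte markers were high in both groups: the sum of Alb, Ttr, Apoa1, Tat and Cps1 ranged from 46987 to 88224 CPM in WT and from 80080 to 91322 CPM in the Fbp1-deleted libraries. Of them, Tat and Cps1 rose. Beside the counts of markers given here, 10% of all genes tested fell and 10.6% rose. The Kupffer cell list, 5 genes summing to between 158.9 and 212 CPM in WT and between 120 and 181 CPM in Fbp1-deleted liver, had 2 genes that fell, Vsig4 and Csf1r, and none that rose. All 5 of its fitted changes were below 0 (median -0.478). Among sinusoidal endothelial markers only Lyve1 passed the test (higher), while 4 of the 5 fitted changes were below 0 (list median -0.246). That list summed to between 169 and 197.6 CPM in WT and between 120 and 196 CPM in Fbp1-deleted liver. Among stellate cell markers only Dcn passed (higher), and 4 of the 5 fitted changes were above 0. Stellate sums were between 134 and 197.6 CPM and between 179 and 242 CPM. No cholangiocyte marker passed the test (sums between 16.5 and 28.9 CPM and between 12.9 and 22.2 CPM). Of the 4 other leukocyte markers tested, Cd79a fell, with the list between 10.4 and 16.3 CPM in WT and between 6.52 and 9.77 CPM in Fbp1-deleted liver. Fitted changes of all 4 were below 0 (median -0.881). The adipocyte list summed to no more than 1.03 CPM, with Lep at 0 in every library, and of the exocrine pancreas list Prss1 and Cpa1 were also at 0 and Pnlip at no more than 0.273 CPM. Its other gene, Cela1, was at 7.56 to 13.9 CPM in WT and fell to 3.40 to 7.47 CPM in Fbp1-deleted liver (change -0.97, edgeR adjusted p = 0.0183).

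Levels are given as CPM on TMM-scaled library sizes, and group means carry the SD over their 5 libraries. A change is the log2 change, Fbp1-deleted minus WT, with the standard error (SE) of the edgeR quasi-likelihood fit, and a gene is said to have risen or fallen where its Benjamini-Hochberg adjusted p over all 15392 genes tested was under 0.05. The p-values measure the spread between these livers, which the series describes as biological replicates. In whole tissue, fewer cells of a type and less RNA per cell cannot be told apart.

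In Fbp1-deleted liver 6 of the 18 sterol synthesis enzymes fell and 1 rose, and Insig2, whose product holds SCAP back, was 4.77-fold higher. All 28 genes passed the filter on low counts. Of them, 8 fell (28.6%), where 10% of all genes tested fell, and 3 rose (10.7%), where 10.6% of all genes rose; in either direction 20.6% of all genes changed. Those that fell were Mvk, Pmvk, Idi1, Fdft1, Tm7sf2, Ebp, Npc2 and Soat2; those that rose were Insig2, Npc1 and Hsd17b7. The fitted change was below 0 for 22 of the 28 genes, against 49.1% of all genes tested, and the median change was -0.44, against 0.009 over all genes. The share that rose was thus near that of all genes, and the share that fell was larger. The number that fell depended on single libraries: it was 14 without WT replicate 4, 5 without WT replicate 3 or WT replicate 5 and 4 without Fbp1-deleted replicate 6, and by DESeq2's Wald test it was 13.

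**Figure D1:**
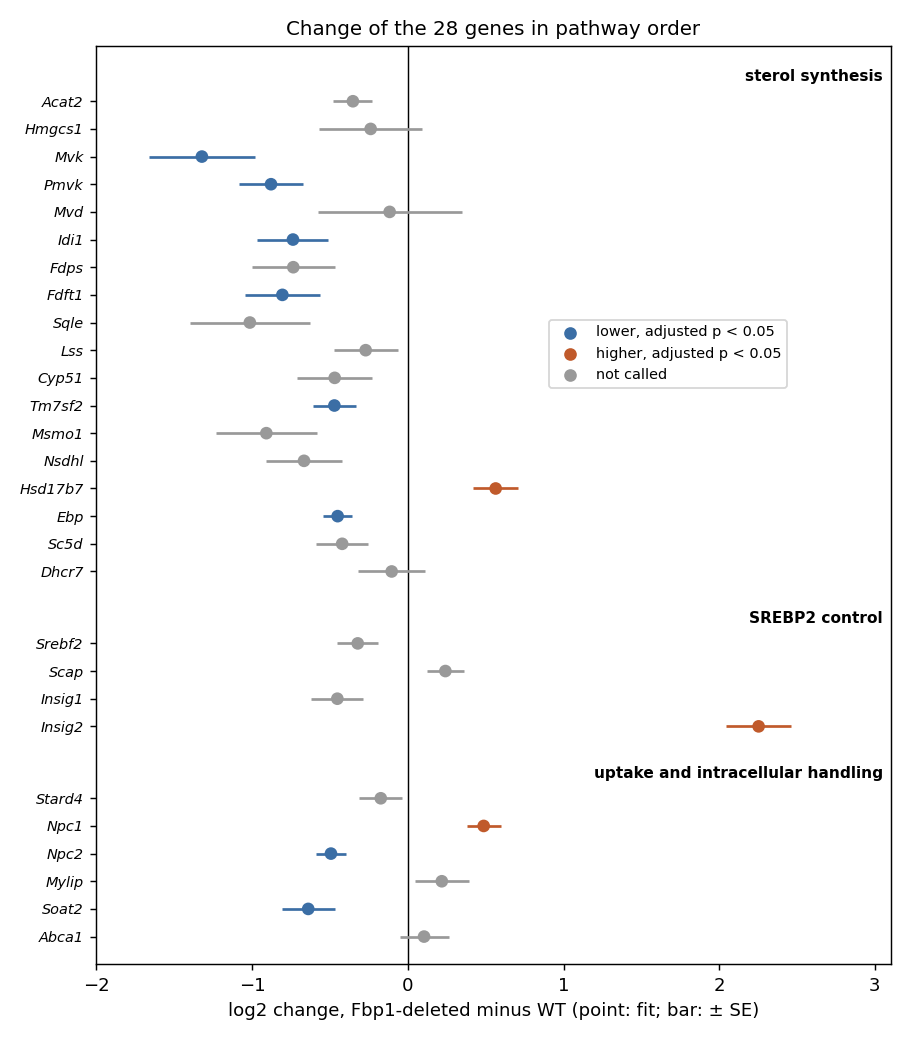
Log2 change of each of the 28 genes, Fbp1-deleted minus WT (x axis; point, fitted change; bar, ± SE), in pathway order from top to bottom and coloured by the edgeR call. All sterol synthesis enzymes except Hsd17b7 lie left of 0, and Insig2, at 2.25, lies far to the right of every other gene.

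Among the 18 synthesis enzymes, 6 fell (33.3%), 1 rose and 11 did not pass the test. The fitted change was below 0 for 17 of 18 and had a median of -0.47. Per kilobase of the annotated principal transcript, the enzymes highest in WT were Fdps (104 CPM per kb), Ebp (104 CPM per kb) and Tm7sf2 (103 CPM per kb), and the lowest was Lss (9.17 CPM per kb).

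The first block of the pathway takes acetyl-CoA to isoprenoid units. Mevalonate kinase, encoded by Mvk (ENSMUSG00000041939.14, chromosome 5, 114444269 to 114460591, plus strand), phosphorylates mevalonate. Its level was 20.9, 22.8, 16, 11.3 and 27.6 CPM in WT replicates 1 to 5 and 6.42, 6.46, 15.4, 6.37 and 4.57 CPM in Fbp1-deleted replicates 6 to 10. In 4 of the 5 Fbp1-deleted libraries Mvk lay below every WT library, and replicate 8 lay within the WT range. The mean fell from 19.7 ± 6.30 to 7.85 ± 4.31 CPM (SD, n = 5 each), a change of -1.32 (SE 0.34, edgeR adjusted p = 0.020), or 2.5-fold lower. Leaving out Fbp1-deleted replicate 6 or 9 ended the call (adjusted p = 0.0561 and 0.0565).

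Phosphomevalonate kinase, the next enzyme, is encoded by Pmvk (ENSMUSG00000027952.16, chromosome 3, 89454541 to 89469013, plus strand). Pmvk was at 44.3, 43.0, 36, 23.9 and 43.2 CPM in the WT libraries and at 16.1, 16.9, 29.3, 24.2 and 17.0 CPM in the Fbp1-deleted libraries. The groups met only at WT replicate 4, which lay just below Fbp1-deleted replicate 9 and below replicate 8. Pmvk fell from 38.1 ± 8.59 to 20.7 ± 5.81 CPM (change -0.88, SE 0.20, edgeR adjusted p = 0.0106), and its annotated transcripts shared no word of 31 bases with another gene.

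Idi1 encodes the isomerase that interconverts the 2 isoprenoid building blocks. It lies on chromosome 13, 8885501 to 8892451, plus strand (ENSMUSG00000058258.14). Its level was 128, 138, 115, 78.3 and 129 CPM in WT and 62.1, 53.2, 90.7, 102 and 45.4 CPM in Fbp1-deleted liver, so that WT replicate 4 lay below Fbp1-deleted replicates 8 and 9. Idi1 fell from 118 ± 23.5 to 70.6 ± 24.4 CPM (change -0.74, SE 0.23, edgeR adjusted p = 0.0403). Leaving out any of 7 libraries (WT replicates 1, 2, 3 and 5, Fbp1-deleted replicates 6, 7 and 10) ended that call, with adjusted p up to 0.0962. Of the words of Idi1, 27.1% occur in other annotated genes, chiefly the processed pseudogene Gm13502, so its counts are less certain. Gm13502 itself was given a mean of 0 CPM in the estimation.

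The other genes of this block did not pass the test. Acat2 encodes a cytosolic thiolase that joins acetyl-CoA units, and had 64.4 ± 10.8 CPM in WT and 50.4 ± 5.02 CPM in Fbp1-deleted liver (change -0.35, SE 0.12, adjusted p = 0.0595, edgeR). Of its words of 31 bases, 43.8% also occur in the neighbouring paralog Acat3, so that reads could be split between them in estimation. Acat3 was at 252 ± 49.4 and 238 ± 31.8 CPM (change -0.08, adjusted p = 0.735, edgeR). Hmgcs1 encodes the cytosolic synthase that makes HMG-CoA. Its libraries spread widely in both groups, from 61.1 to 185 CPM in WT and from 65.6 to 167 CPM in Fbp1-deleted liver (change -0.24, SE 0.33, adjusted p = 0.648, edgeR). Mvd, mevalonate diphosphate decarboxylase, was at 23.8, 26.7, 15.7, 9.07 and 25.6 CPM in WT and 23.1, 24.1, 12.5, 28.8 and 4.74 CPM in Fbp1-deleted liver. Mvd thus had its lowest value in Fbp1-deleted replicate 10 and its highest in replicate 9, and its change of -0.12 (SE 0.46, adjusted p = 0.885, edgeR) was small beside that spread.

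The middle block joins isoprenoid units and closes the ring. Fdft1 encodes squalene synthase, the enzyme that commits farnesyl diphosphate to sterols (ENSMUSG00000021273.10, chromosome 14, 63145150 to 63179578, minus strand). The WT libraries held 87.4, 96.2, 75.9, 48.4 and 89.2 CPM and the Fbp1-deleted libraries 38.9, 42.1, 59.1, 60.9 and 26.2 CPM. Here too WT replicate 4 was the WT library below Fbp1-deleted replicates 8 and 9. Fdft1 fell from 79.4 ± 18.8 to 45.5 ± 14.6 CPM (change -0.81, SE 0.24, edgeR adjusted p = 0.0352), a call lost without any of 6 libraries (WT replicates 1, 2, 3 and 5, Fbp1-deleted replicates 6 and 7), with adjusted p up to 0.0864. The exons of Fdft1 overlap those of Ctsb on the other strand, and 31.9% of its words occur in other genes, 17.6% in Ctsb. Ctsb, which encodes a lysosomal protease, also fell (719 ± 58.8 to 549 ± 63.1 CPM, change -0.39, edgeR adjusted p = 0.020). Without strand, reads of the shared stretch could be assigned only by estimation, so the counts of Fdft1 are less certain.

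Sqle, which encodes squalene epoxidase, a rate-limiting enzyme of the sterol branch, had the second-largest fitted fold among the enzymes but did not pass the test. It was at 38.9, 54.6, 43.7, 33.3 and 52.8 CPM in WT and 15.6, 18.4, 33.7, 36.1 and 6.89 CPM in Fbp1-deleted liver. Fbp1-deleted replicates 8 and 9 lay just above the lowest WT library, and replicate 10 lay far below all others. The change was -1.02 (SE 0.39, adjusted p = 0.0936, edgeR). Fdps, farnesyl diphosphate synthase, had 144 ± 39.2 CPM in WT and 86.3 ± 27.6 CPM in Fbp1-deleted liver (change -0.74, SE 0.27, adjusted p = 0.0739, edgeR). It shares 27.9% of its words, mostly with Gm43738, an annotated gene whose exons overlap its own on the same strand. Gm43738 was given a mean of 0.557 CPM, on library totals, in the estimation. Lss, lanosterol synthase, ranged from 32.2 to 50.2 CPM in WT and from 21.8 to 54.9 CPM in Fbp1-deleted liver (adjusted p = 0.382, edgeR).

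The last block trims lanosterol to cholesterol. Ebp encodes the sterol isomerase that moves the double bond of the B ring (ENSMUSG00000031168.14, chromosome X, 8185329 to 8193512, minus strand). Its level was 189, 191, 173, 170.1 and 181 CPM in WT and 121, 123, 151, 138 and 128 CPM in Fbp1-deleted liver. Ebp was the synthesis enzyme whose Fbp1-deleted libraries all lay below all WT libraries, a separation found in 6.89% of all genes tested. It fell from 181 ± 9.33 to 132 ± 12.6 CPM (change -0.45, SE 0.09, edgeR adjusted p = 0.00461), 1.37-fold lower, and this was the smallest adjusted p among the enzymes.

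Tm7sf2 encodes a sterol C14 reductase (ENSMUSG00000024799.15 in the table, chromosome 19, 6062821 to 6068373, minus strand). Its level was 134, 139, 200.03, 122 and 165 CPM in WT and 102, 123, 126, 98.7 and 97.7 CPM in Fbp1-deleted liver; WT replicate 4 lay just below Fbp1-deleted replicates 7 and 8. It fell from 152 ± 31.2 to 109.5 ± 14.0 CPM (change -0.47, SE 0.14, edgeR adjusted p = 0.0276), and the call was lost without any of 5 libraries (WT replicates 3 and 5, Fbp1-deleted replicates 6, 9 and 10; adjusted p up to 0.0746). Its exons overlap those of Vps51 on the same strand, and 10.7% of the words of Tm7sf2 also occur in Vps51. Vps51, a gene of a tethering complex, also fell (6.67 ± 1.31 to 4.19 ± 0.67 CPM, change -0.67, edgeR adjusted p = 0.0186).

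Hsd17b7, the keto-sterol reductase of C4 demethylation, was the synthesis enzyme that rose (ENSMUSG00000026675.12, chromosome 1, 169949535 to 169969241, minus strand). It was at 49.5, 52.0, 48.2, 46.0 and 61.4 CPM in WT and 82.2, 66.1, 63.3, 104 and 64.3 CPM in Fbp1-deleted liver. Every Fbp1-deleted library lay above every WT library, a separation found in 6.57% of all genes tested. The mean rose from 51.4 ± 5.97 to 76.0 ± 17.6 CPM (change 0.56, SE 0.14, edgeR adjusted p = 0.0140), or 1.48-fold. Its partners in C4 demethylation had fitted changes of the other sign and did not pass the test: Msmo1, the methyl oxidase, was at 82.5 ± 30.5 and 44.0 ± 16.7 CPM (change -0.91, adjusted p = 0.0746, edgeR) and Nsdhl, the decarboxylating dehydrogenase, at 33.6 ± 8.26 and 21.2 ± 7.46 CPM (change -0.67, adjusted p = 0.0748, edgeR). Cyp51, the lanosterol demethylase, Sc5d, the sterol desaturase, and Dhcr7, the reductase that converts 7-dehydrocholesterol to cholesterol, also did not pass (changes -0.47, -0.42 and -0.10, adjusted p = 0.194, 0.0882 and 0.770, edgeR).

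**Figure D2:**
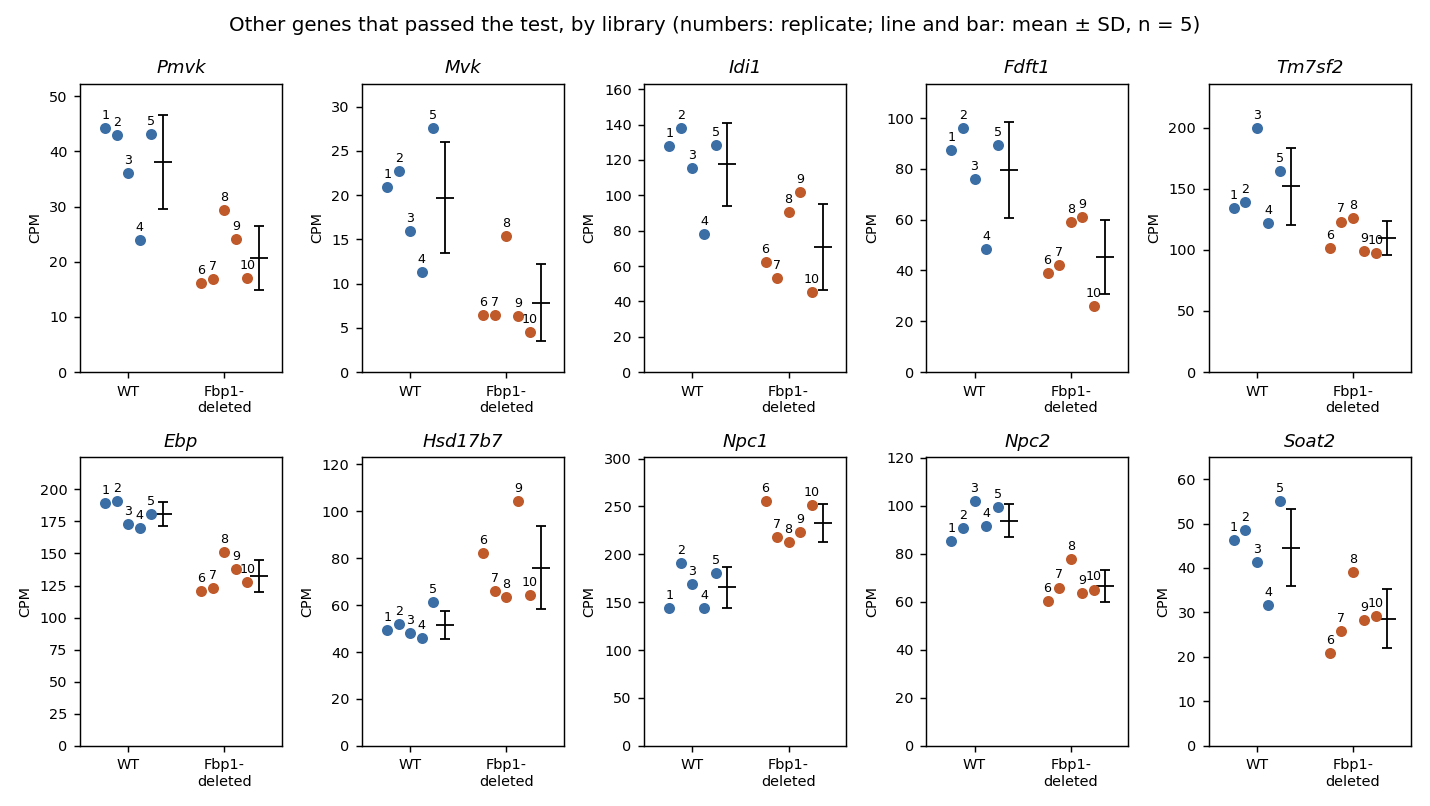
CPM (y axis, from 0) of 10 of the 11 genes that passed the test, by library; numbers mark the replicate, and the line and bar give the mean ± SD (n = 5). Ebp, Hsd17b7, Npc1 and Npc2 show no overlap between groups, while in Mvk, Pmvk, Idi1, Fdft1, Tm7sf2 and Soat2 Fbp1-deleted replicate 8, alone or with other libraries, lies above WT replicate 4.

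The enzymes varied by library within each group. WT replicate 4 had the lowest WT value for all 18 enzymes, and its median enzyme stood at 65.1% of the WT mean, while the other WT libraries had medians between 95.1% and 117.5%. In Fbp1-deleted liver the medians were 66.9%, 64.3%, 81.2%, 81.0% and 43.0% of the WT mean in replicates 6 to 10. The lowest Fbp1-deleted value fell in replicate 10 for 14 of the 18 enzymes, and the highest in replicate 8 or 9 for all 18 (8 and 10 enzymes). Replicate 10 lay below every WT library for 15 enzymes, replicate 6 for 10 and replicate 7 for 9, but replicate 9 for 3 and replicate 8 for 1. Summed over the 18 enzymes, the WT libraries held between 1097 and 1878 CPM and the Fbp1-deleted libraries between 852 and 1446 CPM, so the groups overlapped.

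**Figure D3:**
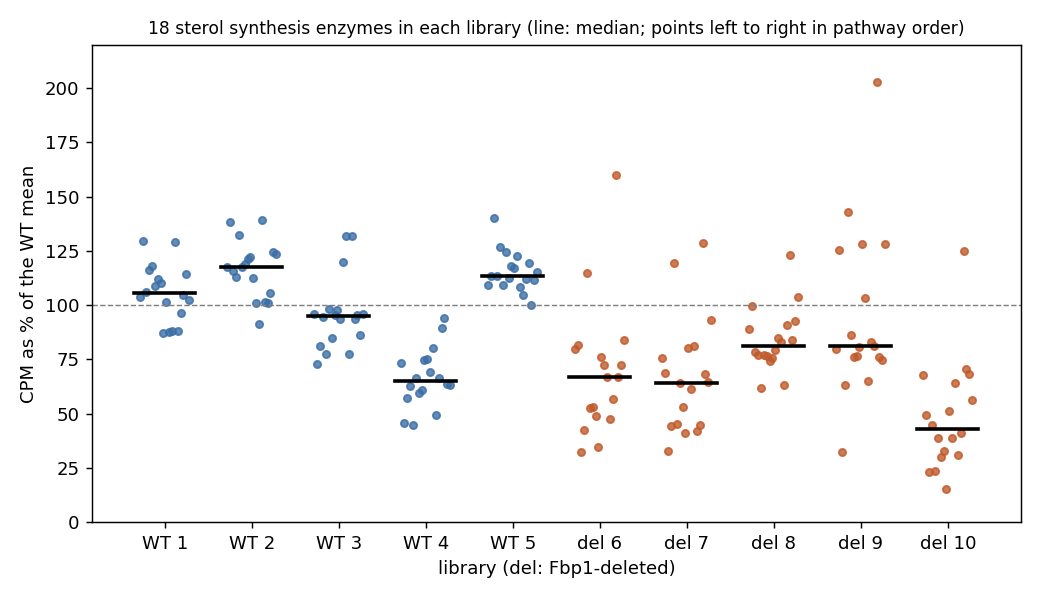
Level of each of the 18 sterol synthesis enzymes in each library as a percentage of that enzyme's WT mean (y axis); points run in pathway order from left to right within a library, and the line marks the median. WT replicate 4 (median 65.1%) sits as low as Fbp1-deleted replicates 6 and 7, and Fbp1-deleted replicate 10 (43.0%) sits lowest.

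Transcripts of the circadian clock, which also paces sterol synthesis in liver, differed between libraries too. Dbp, a clock output gene, was at 193, 184, 62.9, 63.7 and 166 CPM in WT and 29.0, 36.4, 70.1, 22.0 and 31 CPM in Fbp1-deleted liver. WT replicates 3 and 4 were thus low for Dbp, and both lay below Fbp1-deleted replicate 8. Per3, a clock repressor, was at 97.0, 81.3, 56.0, 38.8 and 71.5 CPM in WT and 16.1, 14.5, 28.5, 12.7 and 14.4 CPM in Fbp1-deleted liver. WT replicate 4 was lowest of WT for Per3. For Dbp the lowest WT library was replicate 3. Fbp1-deleted replicate 9 had the lowest Dbp and Per3 of all libraries. The order of libraries is not given for the other clock genes. Of the 9 clock genes listed, 4 fell (Per3, Per2, Tef and Dbp), 2 rose (Arntl and Clock) and 3 did not pass. Over all genes tested, 10% fell and 10.6% rose. The part of the clock genes, the hour of collection and the Kupffer cell markers in the lower sterol enzymes was not tested.

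**Figure D4:**
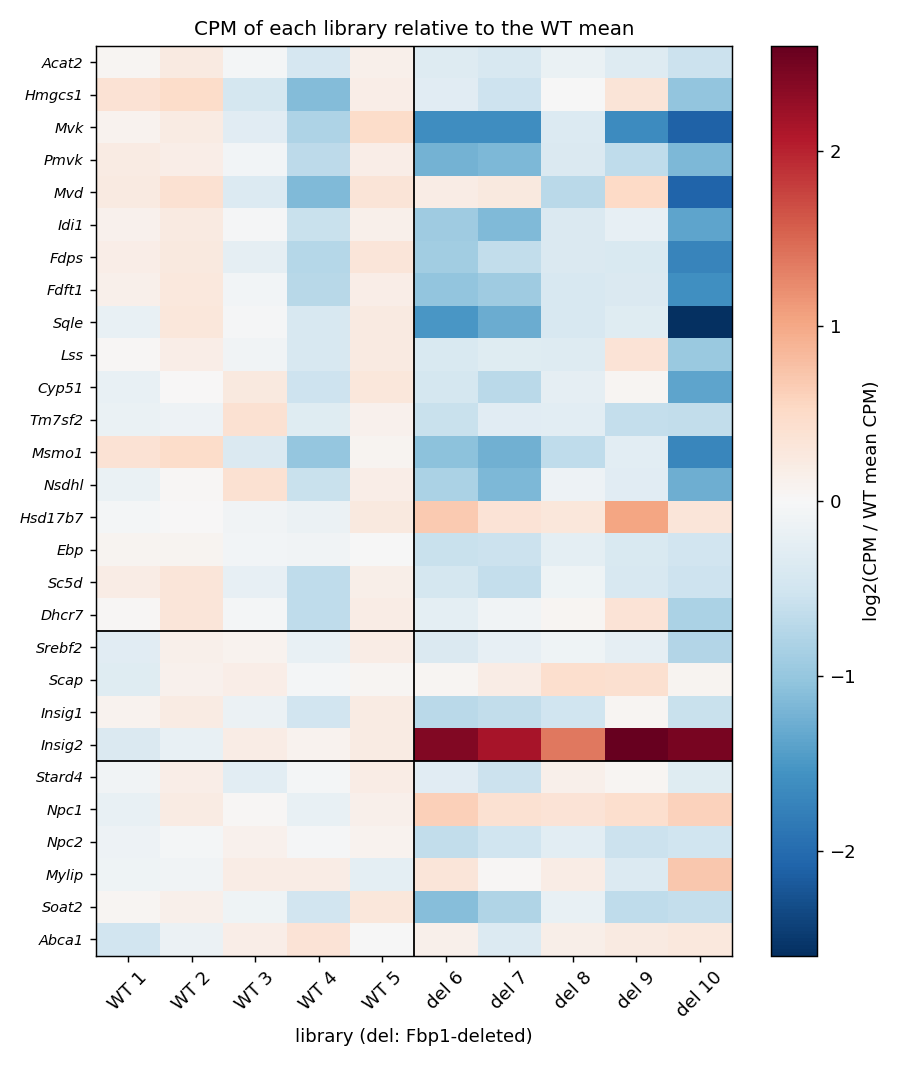
Level of the 28 genes (rows, in pathway order; horizontal lines part synthesis, SREBP2 control and handling) in each library (columns), as log2 of CPM over the WT mean. Blue cells prevail in the synthesis rows of Fbp1-deleted replicates 6, 7 and 10 and of WT replicate 4. Fbp1-deleted replicates 8 and 9 lie nearer the WT mean in these rows (medians 81.2% and 81.0%). The Insig2 row is red in all 5 Fbp1-deleted libraries.

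Of the SREBP2 control genes, Insig2 rose and the other 3 did not pass the test. Insig2 (ENSMUSG00000003721.14, chromosome 1, 121304353 to 121332589, minus strand; its upstream promoter stretch is printed above) was at 49.1, 56.0, 72.9, 67.5 and 73.5 CPM in WT and 337, 283, 166, 384 and 351 CPM in Fbp1-deleted liver. The lowest Fbp1-deleted library, replicate 8, lay above the highest WT library. Its mean rose from 63.8 ± 10.8 to 304 ± 85.7 CPM (change 2.25, SE 0.21, edgeR adjusted p = 3.48e-05). The change stayed between 2.16 and 2.41 when any library was left out. The table gives counts per gene, so the promoter from which the additional transcripts came was not measured.

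Insig1, the counterpart that SREBP itself induces, was at 254, 276, 215, 168 and 277 CPM in WT and 147, 152, 165, 247 and 159 CPM in Fbp1-deleted liver. WT replicate 4 lay among the Fbp1-deleted libraries and Fbp1-deleted replicate 9 among the WT libraries. The means were 238 ± 46.3 and 174 ± 41.3 CPM (change -0.45, SE 0.17, adjusted p = 0.0705, edgeR). The principal transcripts of both INSIG genes are 2697 bases long, so their levels can be set side by side per kilobase. In WT, Insig1 was at 88.3 CPM per kb and Insig2 at 23.7 CPM per kb, and in Fbp1-deleted liver at 64.5 and 113 CPM per kb. The ratio of Insig2 to Insig1 was 0.193, 0.203, 0.339, 0.401 and 0.266 in WT replicates 1 to 5 and 2.29, 1.86, 1.0, 1.56 and 2.21 in Fbp1-deleted replicates 6 to 10, so Insig1 was the more abundant in every WT library and Insig2 equalled or exceeded it in every Fbp1-deleted library.

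Srebf2, which encodes SREBP2 and is its own target, was at 59.6, 79.8, 77.3, 64.1 and 83.7 CPM in WT and 56.4, 62.5, 67.1, 62.4 and 43.1 CPM in Fbp1-deleted liver. The ranges overlapped, with Fbp1-deleted replicates 6 and 10 below the lowest WT library. The change was -0.32 (SE 0.13, adjusted p = 0.0999, edgeR). Scap, the escort of the precursor, was at 129, 175, 183, 156 and 167 CPM in WT and 167, 186, 218, 215 and 170 CPM in Fbp1-deleted liver (change 0.24, SE 0.12, adjusted p = 0.165, edgeR). Among its Fbp1-deleted libraries, replicates 7, 8 and 9 lay above every WT library. These are transcript levels; cleavage of the SREBP2 protein was not measured.

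**Figure D5:**
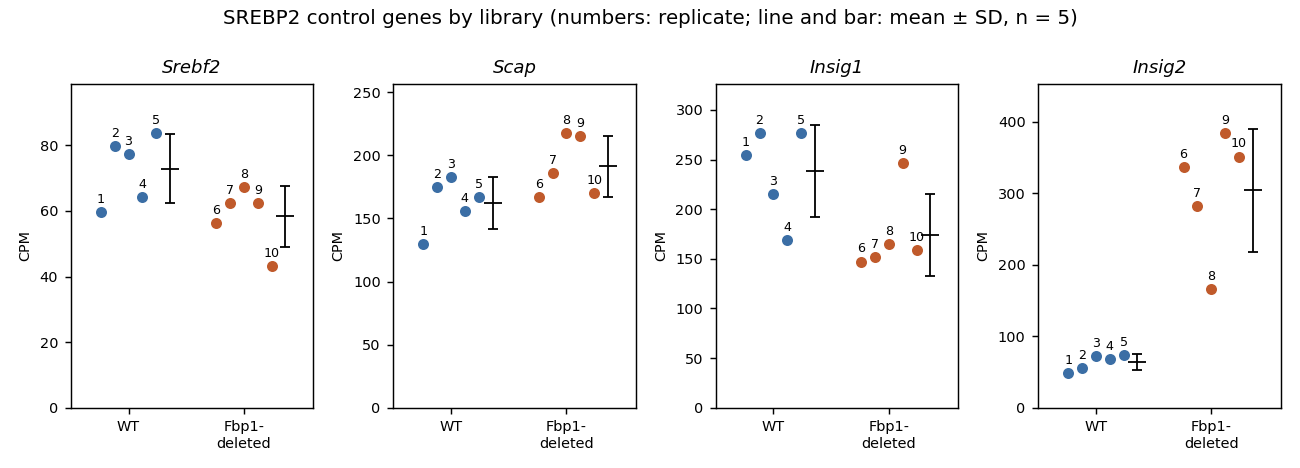
CPM (y axis, from 0) of Srebf2, Scap, Insig1 and Insig2 by library; numbers mark the replicate, and the line and bar give the mean ± SD (n = 5). The groups overlap for Srebf2, Scap and Insig1, and for Insig2 the Fbp1-deleted libraries, 166 CPM and above, stand clear of the WT libraries, 73.5 CPM and below.

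Of the 6 handling genes, Npc1 rose, Npc2 and Soat2 fell, and 3 did not pass the test. NPC1 and NPC2 work in sequence to bring cholesterol out of the lysosome: NPC2 picks it up in the lumen and NPC1 passes it through the membrane. Npc1 (ENSMUSG00000024413.13 in the table, chromosome 18, 12189692 to 12236400, minus strand) was at 144, 191, 169, 144 and 180.4 CPM in WT and 255, 218, 213, 224 and 252 CPM in Fbp1-deleted liver. Npc2 (ENSMUSG00000021242.9, chromosome 12, 84754562 to 84773152, minus strand) was at 85.2, 90.8, 102, 91.6 and 99.7 CPM and at 60.2, 66.0, 77.9, 63.8 and 65.1 CPM. Neither gene's groups overlapped, and the directions were opposite. Npc1 rose from 166 ± 21.4 to 232 ± 19.7 CPM (change 0.49, SE 0.11, edgeR adjusted p = 0.00706), and Npc2 fell from 93.8 ± 6.88 to 66.6 ± 6.68 CPM (change -0.49, SE 0.10, edgeR adjusted p = 0.0032). Macrophages also express Npc2; the Kupffer cell sums are given above, and their part in its fall was not tested. Exons of Npc1 overlap those of Rmc1 on the other strand, which was at 17.4 ± 2.64 and 16.4 ± 0.831 CPM.

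Soat2 encodes the hepatocyte and intestinal enzyme that esterifies cholesterol for storage and secretion (ENSMUSG00000023045.13, chromosome 15, 102150526 to 102163469, plus strand). It was at 46.2, 48.5, 41.4, 31.7 and 55.0 CPM in WT and 20.8, 25.9, 39.0, 28.3 and 29.1 CPM in Fbp1-deleted liver, where replicate 8 was the library within the WT range. Soat2 fell from 44.6 ± 8.68 to 28.6 ± 6.65 CPM (change -0.64, SE 0.17, edgeR adjusted p = 0.0179), 1.56-fold lower. Stard4, a soluble sterol carrier, Mylip, the ubiquitin ligase that sends lipoprotein receptors to degradation, and Abca1, the exporter of cholesterol to apolipoprotein A-I, did not pass the test. Their changes were -0.17, 0.22 and 0.10 (adjusted p = 0.401, 0.407 and 0.678, edgeR), with ranges that overlapped. Stard4 ranged from 69.1 to 95.6 CPM in WT and from 56.8 to 91.0 CPM in Fbp1-deleted liver, Mylip from 9.46 to 12.9 and from 8.74 to 18.2 CPM, and Abca1 from 76.8 to 139 and from 85.4 to 132 CPM.

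Lists of further genes around the pathway moved in both directions. Over all genes tested, 10% fell and 10.6% rose, and the counts of these short lists stand beside those shares. Of 9 genes for cleavage of SREBP and sterol-regulated degradation, 2 fell and 1 rose, with a median change of -0.002. Erlin1, an endoplasmic reticulum lipid-raft protein that takes part in the degradation of sterol-regulated proteins, fell from 33.9 ± 5.07 to 21.8 ± 4.43 CPM, and Aup1, a recruiter of ubiquitin-conjugating enzymes, from 136 ± 8.24 to 107 ± 10.1 CPM. Ube2g2, the conjugating enzyme that AUP1 binds, rose from 34.6 ± 6.06 to 54.6 ± 10.9 CPM. The proteases Mbtps1 and Mbtps2, which cut SREBP in the Golgi, did not pass the test (changes -0.15 and 0.47, adjusted p = 0.442 and 0.0953, edgeR).

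Of 10 other known SREBP2 targets, 2 fell and 3 rose. Tmem97, a sterol-regulated membrane protein that binds NPC1, fell from 88.5 ± 9.27 to 56.4 ± 8.82 CPM, and Cyb5b, an outer-membrane cytochrome of mitochondria, from 296 ± 38.1 to 207 ± 28.9 CPM. Elovl6, a fatty acid elongase that is also a target of SREBP1c, rose from 76.3 ± 20.8 to 391 ± 76.2 CPM. Aacs, acetoacetyl-CoA synthetase, rose from 79.3 ± 20.4 to 179 ± 42.0 CPM, and Lpin1, a phosphatidate phosphatase induced by fasting, from 377 ± 281 to 1105 ± 279.6 CPM. Lpin1 lay near the threshold (edgeR adjusted p = 0.0466), and its groups overlapped. WT replicate 4 was at 828 CPM, above Fbp1-deleted replicate 8 at 793 CPM. The members that rose thus include genes of fatty acid metabolism.

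In the isoprenoid branches, which use farnesyl diphosphate for dolichol, ubiquinone and protein prenylation, none of 10 genes fell and 2 rose. These were Icmt, the methyltransferase of prenylated proteins (50.1 ± 11 to 73.3 ± 7.99 CPM), and Nus1, a subunit of the dolichol synthase (47.4 ± 7.13 to 60.8 ± 6.13 CPM). The list's median change was 0.26, against -0.47 for the 18 sterol enzymes; the difference between the lists was not tested. Of the 3 electron donors for sterol enzymes, Cyb5a, cytochrome b5 of the endoplasmic reticulum, fell (909.7 ± 108 to 633 ± 95.4 CPM), and Por and Cyb5r3 did not pass.

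Oxysterol-sensing LXR and its targets, 6 genes, had 1 that fell, Pltp, the phospholipid transfer protein (49.3 ± 18.6 to 26.9 ± 7.82 CPM), and none that rose. Srebf1 was at 192 ± 98.4 and 197 ± 73.1 CPM (change 0.04, adjusted p = 0.948, edgeR). Of the 6 genes for cholesterol esters and lipoprotein uptake, Lrp1, a receptor for remnant lipoproteins, fell from 1221 ± 267 to 727 ± 161 CPM. Nceh1, a cholesterol ester hydrolase, rose from 45.8 ± 2.66 to 61.7 ± 12.3 CPM. None of the 3 oxysterol-making enzymes tested passed (changes between -0.16 and 0.13).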

How the data were processed

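Liver RNA of 10 mice (5 WT, 5 Fbp1-deleted) was sequenced. The authors deposited 1 table of estimated counts, with a row per gene. Per the submitters' processing notes, CASAVA and Salmon were used with the GRCm38 build; no versions are named. All counts were whole numbers. Whether they were adjusted for transcript length is not given in the sources used here. The series' design text also describes another route, through alignment and featureCounts to DESeq2. Salmon shares out reads that match several transcripts by estimation, and the library keeps no strand, so counts of paralogs and overlapping genes are less certain than their spread between replicates.

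Identifiers were matched to GENCODE M21, 52175 with the same version, 1180 with another version and 37 not at all. edgeR 4.0.16 in R 4.3.3 was used with filterByExpr, TMM factors and a robust quasi-likelihood test without covariates; the fit was tested on simulated data. Adjusted p is Benjamini-Hochberg over 15392 genes, with a threshold of 0.05. The SE is the size of the log2 change over the square root of F. Per-kilobase levels divide CPM by the length of the APPRIS principal transcript. Shared words are the 31-base words of a gene's annotated transcripts, on either strand, that also occur in another gene. Alternatives were RLE, upper quartile and total scaling, no filter, a stricter filter (at least 10 counts in every library of a group), DESeq2 1.42.0, limma-voom (limma 3.58.1), edgeR without robust shrinkage, and each library left out in turn. The members, lists and tests were chosen with earlier results of these data known. Values per library are given for members that passed the test, members whose direction differed from most of their list and the SREBP2 control genes, with further per-library values for Mvd and Sqle chosen after they were seen. From each other pathway list the members called are named, at most 4; a further listed gene is not reported here. Acat3, Mbtps1, Mbtps2, Por, Cyb5r3, Srebf1, the clock genes and genes that overlap a member stand outside this rule. Within a group no libraries agreed within sampling noise (smallest chi-square per degree of freedom 16.2).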

Additional observations from a re-analysis of the deposited data

Results flagged for a closer look

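Among the 56 groups of 5 libraries examined (28 genes in both genotypes), 3 held a library far from the other 4 by Dixon's criterion, which chance passes in about 1 of 20 groups. Mvk, mevalonate kinase, was at 15.4 CPM in Fbp1-deleted replicate 8, where the other 4 Fbp1-deleted libraries lay between 4.57 and 6.46 CPM. Insig1 was at 246.8 CPM in Fbp1-deleted replicate 9, against 147 to 165 CPM in the other 4. Abca1 was at 85.4 CPM in Fbp1-deleted replicate 7, against 119.6 to 132 CPM in the other 4.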

How the results depend on the processing

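Over 18 alternatives, the 28 changes gave 504 values, of which 451 kept their direction and side of the threshold, 23 lost and 25 gained a call, and 5 changed sign. Insig2, Npc1 and Hsd17b7 were higher, and Pmvk, Ebp, Npc2 and Soat2 lower, in all 18. The number of the 28 genes that fell was 5 with no filter and 13 with DESeq2, and between 4 and 14 with a library left out. Of the 18 synthesis enzymes, 3 fell with no filter, 10 with DESeq2 and between 2 and 11 with a library left out. With no filter, where 33695 genes were tested, Mvk, Idi1 and Fdft1 lost their calls (edgeR adjusted p = 0.0754, 0.126 and 0.12). The cause of these and of the other lost or gained calls was not tested. Over all genes, between 2105 (without Fbp1-deleted replicate 6) and 3918 (without Fbp1-deleted replicate 8) changed. All changes of sign were of genes not called. With a library left out, Abca1 ranged from -0.001 (without WT replicate 1) to 0.207, Dhcr7 from -0.243 to 0.025 (without Fbp1-deleted replicate 10), and Mvd from -0.321 to 0.123, being above 0 without WT replicate 2 (0.006), Fbp1-deleted replicate 8 (0.001) or replicate 10 (0.123). Insig1 and Srebf2 were lower with upper quartile factors and with library totals, which moved the median of all genes to -0.063 and -0.078 and the share of higher genes among calls from 51.5% to 40.3% and 37.7%. Insig1 was also lower by DESeq2's Wald test (adjusted p = 0.0425), with the median of all genes at 0.009. It was lower too without WT replicate 4 or Fbp1-deleted replicate 9 (edgeR adjusted p = 0.0225 and 0.0153). In the other settings Insig1 did not pass. No paired analysis was possible because the replicate numbers differ between the groups. The lowest count of the 28 genes in a library was 83 (Mvk); the effect of depth on the calls was not tested.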
